A study of Mus musculus with 6 samples.

Results

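The solute carriers (Slc genes) are membrane proteins that move nutrients, metals, ions and metabolites across the cell surface and across the membranes of organelles. Members were the genes of the deposited table whose symbol begins with Slc followed by a family number, a letter and a member number, and whose counts summed to at least 300 over the 6 libraries. The pattern matched 230 symbols, of which 30 had fewer counts and 2 were left out by the rule, so 198 of the 13935 genes were members. They were thus chosen by symbol and by their summed counts over all libraries, though with earlier results of these data known. Members with almost no counts in a group, such as Slc2a6 and Slc25a47, met the limit only through the other group. Just inside the limit stood Slc37a2 with 311 counts, Slc39a1 with 312 and Slc38a6 with 452, and just outside stood Slc2a4rg-ps with 287 and Slc7a11 and Slc24a3 with 268 each. The largest substrate classes were the mitochondrial Slc25 family with 40 members and the carriers of amino acids, of metals and of ions, with 24 each. Another 4 members are named after a carrier but are not carriers themselves: Slc4a1ap, Slc7a6os, Slc9a3r1 and Slc9a3r2.

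Messenger RNA was sequenced from mouse bone marrow cells called long-term hematopoietic stem cells (LT-HSCs), the rare cells that renew the blood. Labels name 3 wild-type mice (replicates 1 to 3) and 3 mice with a conditional knockout of Mel18 in the hematopoietic system (replicates 4 to 6). Mel18 is encoded by Pcgf2 and is a subunit of polycomb repressive complex 1, which helps to keep genes silent. The table's header describes its comparison as Cre+ against Cre- LT-HSCs, so where Cre+ stands for the knockout an effect of the Cre recombinase and one of the genotype cannot be told apart. The sources used here do not give the Cre driver, the sort gate, pooling of mice, age or sex.

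Stem cells depend on several kinds of carrier. Heterodimers of the heavy chain Slc3a2 with light chains such as Slc7a5 exchange large neutral amino acids, Slc39 proteins bring zinc into the cytosol and Slc30 proteins take it out, and Slc25 proteins carry nucleotides, phosphate and metabolites across the inner mitochondrial membrane. Many carriers also mark blood lineages, such as Slc4a1 and Slc14a1 in red cells and Slc40a1 in iron-recycling macrophages and maturing erythroid cells.

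The libraries held between 26469336 and 37180701 counts, of which members took 1.03% to 1.24%, and between 189 and 196 members had at least 1 count in a library. Pcgf2 had 43, 68 and 54 counts in the wild type and 72, 72 and 107 in the libraries labelled knockout, so it was not lower there, and counts over a whole gene do not show whether deleted exons are transcribed. Directions below follow the labels. Summed CPM (counts divided by the TMM-adjusted library size) of 10 LT-HSC markers was 778 to 1470 in the wild type and 1804 to 2564 in the knockout-labelled libraries. The ranges were 6216 to 14634 against 519 to 1671 for 12 markers of lineage-primed progenitors, and 559 to 831 against 22.0 to 95.5 for 8 monocyte and macrophage markers. All 10 LT-HSC markers were fitted higher, and 0 of 12 progenitor and 0 of 7 tested monocyte markers were. Of these, Procr was called higher and Cd48 and 3 monocyte genes lower. These shifts accompany every comparison below and their part in the results was not tested. In bulk RNA, fewer cells of a type and less RNA per cell cannot be told apart. Knockout replicate 6 had the fewest genes with counts, 12150 against 12395 to 12981, and its library number, 37, lies outside the run of 6 to 10 of the others. Some results are therefore also given without it.

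Of the 196 members tested, 0 differed between genotypes in edgeR's quasi-likelihood test at an adjusted p under 0.05, a rule that called 0.0159% of the 12603 genes tested higher and 0.127% lower, 0.143% in all. The lowest adjusted p among members was 0.0762, for the hexose carrier Slc2a6 (edgeR quasi-likelihood, Benjamini-Hochberg). At an unadjusted p under 0.05 there were 8 members higher (4.08%) and 10 lower (5.10%), where 5.36% and 6.51% of all genes passed, or 9.18% of members against 11.9% of all genes. The groups did not overlap for 17 members on the higher and 18 on the lower side, or 8.67% and 9.18% of members, where 10.1% and 11.3% of all genes had separate groups. In both directions together this was 17.9% of members against 21.4% of all genes. Members' shares lay below those of all genes by both measures with all 6 libraries. Fitted fold changes were above 0 for 96 members and below 0 for 100, where 49.6% of all genes were above 0, with a median log2 fold change of -0.00, against -0.01 over all genes tested. Without knockout replicate 6, 1 member was called, Slc2a6, where 0.373% of all genes were called, and 29 of 197 (14.7%) had an unadjusted p under 0.05, where 12.8% of all genes did. DESeq2 called 6 members higher and 2 lower where it called 1.63% and 2.58% of all genes, so its 4.08% of members compares with 4.21% of all genes. The likelihood ratio test of edgeR called 3 members higher and 1 lower, where 1.14% and 2.29% of all genes were called.

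**Figure D1:**
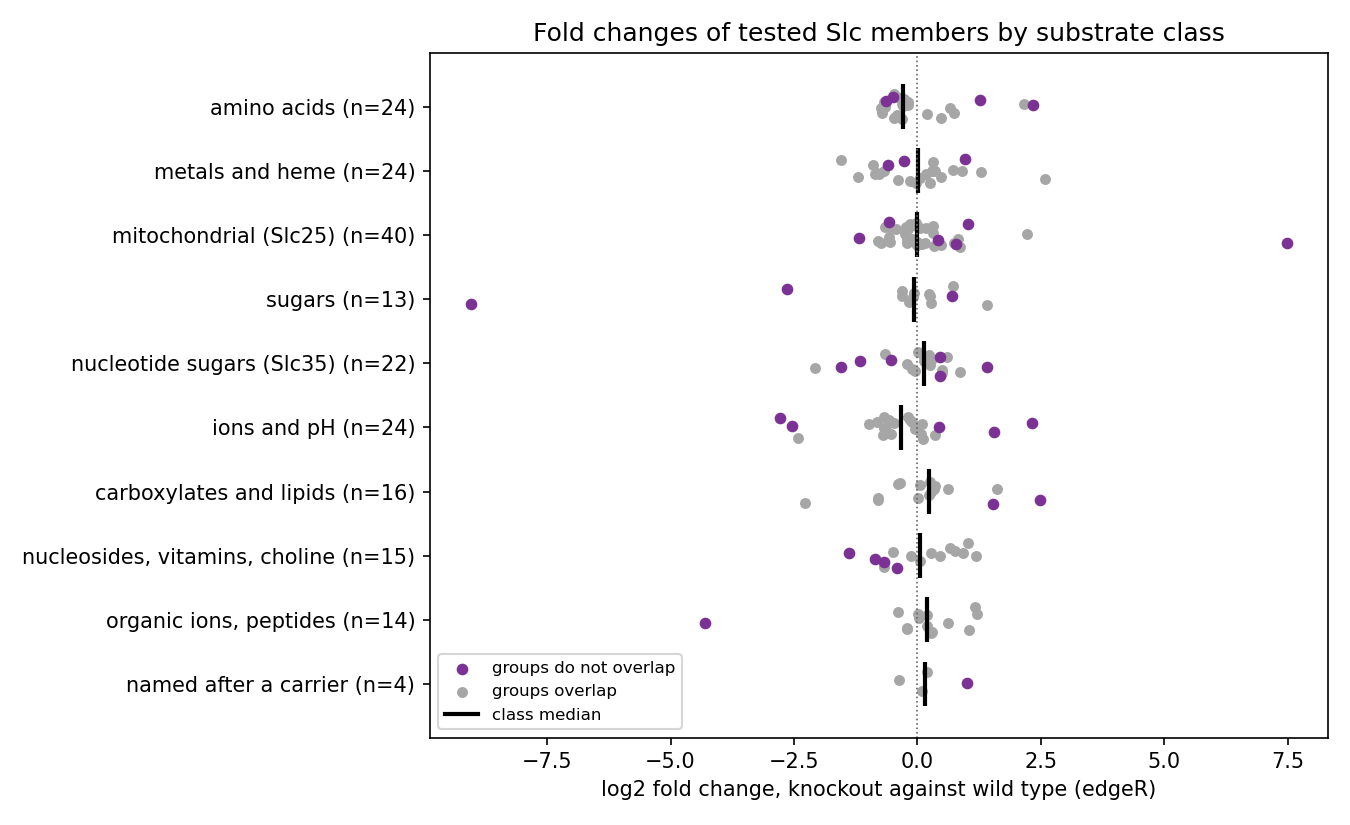
Log2 fold change of each tested Slc member (x axis, knockout-labelled against wild type, edgeR fit) by substrate class (y axis), with purple points where the 3 and 3 libraries did not overlap, gray points where they did, and a black bar at the class median. Medians lay between -0.33 (ions and pH) and 0.24 (carboxylates and lipids), and the outermost points are Slc2a6 at -9.05 and Slc25a47 at 7.48.

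Slc2a6 and Slc25a47 had at most 3 counts summed over one of the groups. Slc2a6 (mm10 chr2:27021365-27027998, minus strand) encodes a relative of the facilitative glucose transporters that resides on intracellular membranes and is known from leukocytes, spleen and brain. Its counts were 405, 286 and 311 in the wild-type libraries and 0, 2 and 0 in knockout-labelled replicates 4, 5 and 6. All wild-type libraries lay far above all knockout-labelled ones, and the groups did not overlap. The CPM averaged 11.6 ± 2.10 (SD, n = 3) in the wild type and 0.0174 ± 0.0301 (SD, n = 3) in the knockout-labelled libraries. The ratio of library-scaled counts was 625, with a 95% exact interval of 173 to 5168 that covers counting error only. The adjusted p was 0.0762 (edgeR quasi-likelihood, Benjamini-Hochberg), and its range over the alternatives was 5.02e-09 with DESeq2 to 0.383. Without knockout replicate 6 the adjusted p was 0.0491 and Slc2a6 passed the edgeR quasi-likelihood test. Summed monocyte and macrophage markers were also lower in every knockout-labelled library. Fitted log2 fold changes of the tested markers ran from -10.64 for Ccr2 to -1.81 for Cd68. The part of these markers in the difference of Slc2a6 was not tested.

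Slc25a47 (mm10 chr12:108851129-108856815, plus strand) encodes a mitochondrial carrier best known from liver. Its counts were 3, 0 and 0 in wild-type libraries against 354, 63 and 304 in those labelled knockout. Replicate 5 was the lowest of the latter and still above every wild-type library. The CPM averaged 0.0343 ± 0.0594 (SD, n = 3) against 6.81 ± 4.48 (SD, n = 3), a ratio of 193 with a 95% exact counting interval of 65.7 to 936. At a log2 fold change of 7.48 (SE 1.87), the adjusted p was 0.175 (edgeR quasi-likelihood, Benjamini-Hochberg), over alternatives 0.000171 to 0.456, so it did not pass. Slc25a29, a mitochondrial carrier of basic amino acids, lies 15253 bases away on the other strand and was named for this position. Its counts were 325, 198 and 192 against 106, 165 and 124 in the same order. Its fitted log2 fold change was -1.18 (SE 0.73), opposite in sign to that of its neighbour.

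RefSeq promoter windows of Slc2a6, Slc25a47, Slc28a2, Slc50a1 and Slc24a5 follow, 5 of the 8 members called by DESeq2. Slc7a4 and Slc6a15, also called, had no window in the set used. Each window runs from 250 bases before the start to 50 after it on build GRCm38.p6. Capitals mark the CCAAT box, a common promoter element searched as CCAAT on both strands and therefore also seen as ATTGG.
Slc2a6, chr2:27027949-27028248, minus strand: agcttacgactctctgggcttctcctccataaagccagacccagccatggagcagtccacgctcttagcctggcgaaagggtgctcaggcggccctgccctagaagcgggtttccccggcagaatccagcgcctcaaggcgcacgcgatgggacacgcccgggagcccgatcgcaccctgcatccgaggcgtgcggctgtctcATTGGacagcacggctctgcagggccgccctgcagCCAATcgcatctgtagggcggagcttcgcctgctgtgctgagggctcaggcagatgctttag
Slc25a47, chr12:108850879-108851178, plus strand: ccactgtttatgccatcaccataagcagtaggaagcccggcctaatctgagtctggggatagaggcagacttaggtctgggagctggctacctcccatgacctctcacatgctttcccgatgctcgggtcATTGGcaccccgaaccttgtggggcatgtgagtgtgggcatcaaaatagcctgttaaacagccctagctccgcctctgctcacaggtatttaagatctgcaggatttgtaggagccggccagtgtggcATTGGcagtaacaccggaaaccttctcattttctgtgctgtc
Slc28a2, chr2:122426185-122426484, plus strand: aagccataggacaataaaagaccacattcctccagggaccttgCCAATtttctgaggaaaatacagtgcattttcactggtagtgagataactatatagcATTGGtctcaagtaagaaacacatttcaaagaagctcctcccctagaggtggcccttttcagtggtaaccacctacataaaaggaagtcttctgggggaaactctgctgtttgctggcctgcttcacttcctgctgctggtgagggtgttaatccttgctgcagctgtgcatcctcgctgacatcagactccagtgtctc
Slc50a1, chr3:89270521-89270820, minus strand: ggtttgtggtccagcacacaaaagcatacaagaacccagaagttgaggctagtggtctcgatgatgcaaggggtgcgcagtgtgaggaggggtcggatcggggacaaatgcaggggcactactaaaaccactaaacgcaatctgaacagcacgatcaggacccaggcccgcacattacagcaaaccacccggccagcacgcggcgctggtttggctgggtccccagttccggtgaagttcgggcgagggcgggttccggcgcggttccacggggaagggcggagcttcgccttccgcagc
Slc24a5, chr2:125067877-125068176, plus strand: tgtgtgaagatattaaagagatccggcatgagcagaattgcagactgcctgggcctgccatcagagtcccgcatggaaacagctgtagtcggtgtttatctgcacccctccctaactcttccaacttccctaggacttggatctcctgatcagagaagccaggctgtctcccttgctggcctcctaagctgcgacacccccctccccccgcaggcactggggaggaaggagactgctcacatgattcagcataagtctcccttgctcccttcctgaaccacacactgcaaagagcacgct
The windows of Slc2a6, Slc25a47 and Slc28a2 each held 2 matches, that of Slc50a1 held 0 and that of Slc24a5 held 0, where 37.4% of 32851 RefSeq promoter windows held at least 1. A match is a description of the letters only, and the part of the element in the fold changes was not tested.

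Sugar carriers numbered 14, of which 13 were tested. Slc50a1 (mm10 chr3:89268246-89270570, minus strand), the mammalian member of the SWEET sugar exporters, had 96.3, 98.1 and 99.8 CPM in the wild type and 154, 152 and 170.3 in the knockout-labelled libraries. The wild-type values lay within a few CPM of each other and every knockout-labelled library was above them. Means were 98.0 ± 1.74 and 159 ± 10.1 CPM (SD, n = 3 each), a log2 fold change of 0.69 (SE 0.20) with an adjusted p of 0.222 (edgeR quasi-likelihood, Benjamini-Hochberg). Under DESeq2 with Benjamini-Hochberg adjustment it passed at 0.0437. Slc2a3, the high-affinity glucose transporter GLUT3, had 35.2, 87.9 and 104 CPM against 67.9, 76.3 and 125, and the groups overlapped. Summed CPM of the class was 348, 380 and 448 in the wild type and 470, 449 and 487 in the knockout-labelled libraries. The sums did not overlap, by a narrow margin, while the median log2 fold change of the class was -0.07. Mean sums were 392 and 469 CPM, of which Slc50a1 alone made up 98.0 and 159, and without Slc50a1 the sums overlap. Slc37a2 was in 3 libraries only, with 1 and 95 counts in wild-type replicates 1 and 2 and 215 in knockout replicate 6, and was not tested.

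**Figure D2:**
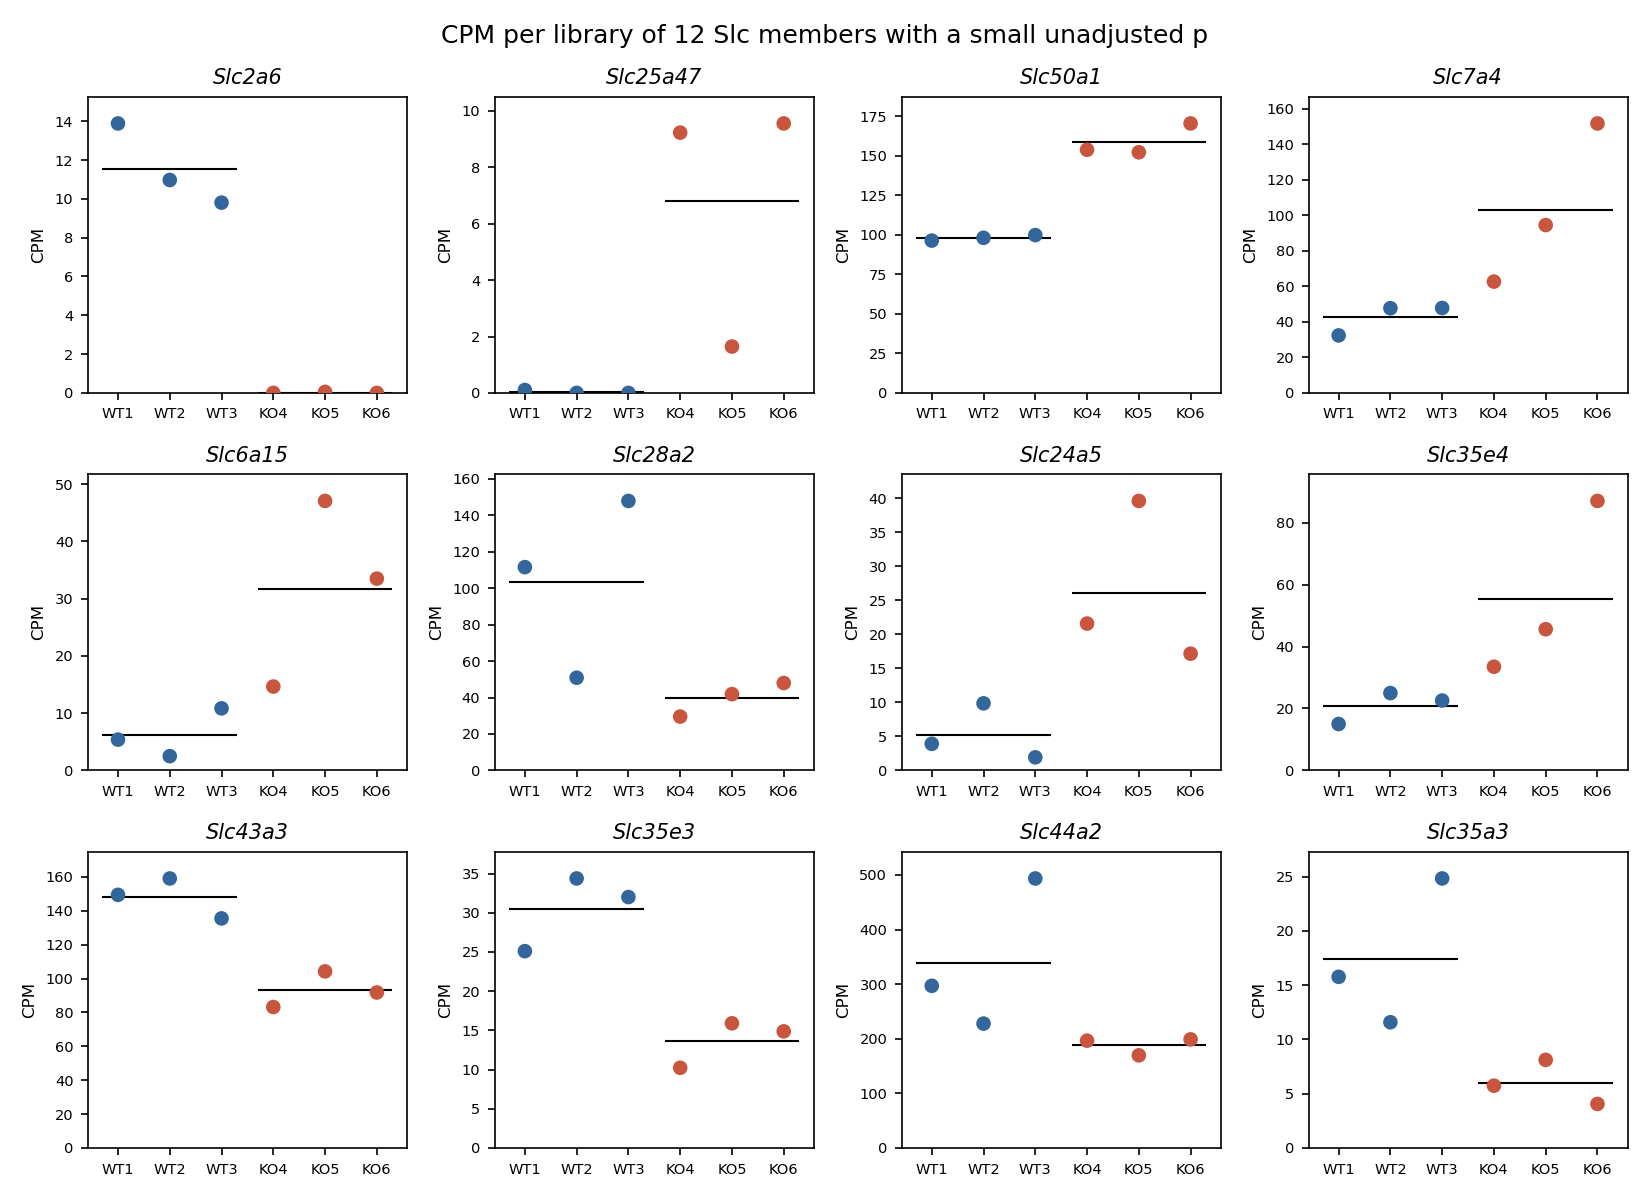
CPM (y axis, from 0) in each library (x axis, WT1 to WT3 wild type in blue, KO4 to KO6 labelled knockout in red) for 12 members with a small unadjusted p, with group means as black lines. In all 12 panels the groups do not overlap, from Slc2a6, with 9.80 to 13.9 CPM in the wild type and at most 0.0522 in the knockout-labelled libraries, to Slc35a3, with 11.6 to 24.8 against 4.06 to 8.12. Panels were picked by p from the same data, which favors separate groups.

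Amino acid carriers were 24 tested members, 7 fitted higher and 17 lower, and their median log2 fold change was -0.30, against -0.01 over all genes. At an unadjusted p under 0.05 there were 2 higher and 1 lower, where 5.36% and 6.51% of all genes passed. The groups did not overlap for 2 on each side, where 10.1% of all genes were separate on the higher and 11.3% on the lower side. The separate members were Slc7a4 and Slc6a15 on the higher side and Slc1a5 and Slc7a6 on the lower. Slc7a4 (mm10 chr16:17572018-17576671, minus strand), a relative of the cationic amino acid transporters, had 32.4, 47.7 and 47.9 CPM in the wild type and 62.7, 94.6 and 152 in the knockout-labelled libraries. Every knockout-labelled library lay above the wild type. At a log2 fold change of 1.27 (SE 0.36), the adjusted p was 0.228 (edgeR quasi-likelihood, Benjamini-Hochberg). Slc6a15 (mm10 chr10:103367808-103419379, plus strand), a sodium-dependent transporter of branched-chain amino acids and proline best known from brain, had 5.38, 2.49 and 10.8 CPM against 14.7, 47.1 and 33.5. These groups did not overlap either, at a log2 fold change of 2.35 (SE 0.67). Its adjusted p was also 0.228 (edgeR quasi-likelihood, Benjamini-Hochberg), and both genes passed under DESeq2, at 0.0357 for Slc7a4 and 0.0194 for Slc6a15.

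Slc3a2, Slc7a5 and Slc1a5, which supply leucine and glutamine, had lower means in the knockout-labelled libraries. Slc3a2, the heavy chain that brings several light chains to the cell surface, had 408, 694 and 498 CPM in the wild type and 272, 271 and 463 in the knockout-labelled libraries. Replicate 6 overlapped the wild type and replicates 4 and 5 lay below it. Its means were 534 ± 146 and 335 ± 111 CPM (SD, n = 3 each), with a log2 fold change of -0.67 (SE 0.30). Slc7a5, its light chain for leucine and other large neutral amino acids, had 102, 110 and 165 CPM against 58.5, 54.7 and 116, the same order of knockout-labelled libraries as for Slc3a2. Slc1a5, the glutamine and neutral amino acid exchanger ASCT2, had 300.3, 286 and 324 CPM against 175, 227 and 243. Here all knockout-labelled libraries lay below the wild type, at means of 304 ± 19.0 and 215 ± 35.8 CPM (SD, n = 3 each) and a log2 fold change of -0.50 (SE 0.21). Adjusted p-values of these genes were 0.441 for Slc3a2, 0.468 for Slc7a5 and 0.405 for Slc1a5 (edgeR quasi-likelihood, Benjamini-Hochberg), and none passed. Slc7a6, another light chain of Slc3a2 and named for its separate groups after its values were seen, had 39.0, 41.8 and 57.2 CPM against 26.0, 27.5 and 35.6.

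The system A carriers, which concentrate small neutral amino acids with sodium, overlapped between groups. Slc38a1 had 157, 182 and 144 CPM against 190, 104 and 128, and Slc38a2 had 142, 107 and 198 against 118, 101 and 144. These genes lie 44479 bases apart on chromosome 15. Slc7a1, the main carrier of cationic amino acids, had 24.5, 23.5 and 25.2 CPM against 30.0, 23.2 and 7.23, so that replicate 6 alone was low. Its log2 fold change of -0.28 (SE 0.53) was 0.13 with that library left out. Summed CPM of the class was 1677, 2087 and 2196 in the wild type and 1405, 1486 and 1828 in the knockout-labelled libraries, of which only replicate 6 reached into the wild-type range. Among 27 tested genes of amino acid sensing by mTORC1, 0 were called and 15 were fitted higher, and their median was 0.07 on the log2 scale. Lamtor3, a subunit of the lysosomal Ragulator complex, had 55.4, 65.2 and 36.2 CPM against 88.7, 83.0 and 113, and Depdc5, a subunit of the GATOR1 complex that restrains mTORC1, had 22.1, 18.3 and 49.997 against 14.5, 15.0 and 7.48. The groups of both were separate, in opposite directions, and neither passed.

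Metal carriers were 24 tested members, 12 fitted higher and 12 lower, with a median log2 fold change of 0.01, and their summed CPM overlapped at 1320, 1561 and 1589 against 1366, 1388 and 1588. The zinc carriers held the members with the smallest p. Slc30a5, which loads zinc into the secretory pathway, had 127, 136 and 129 CPM in the wild type and 68.1, 90.8 and 100.02 in the knockout-labelled libraries. Its wild-type libraries were close together and above all others, at means of 131 ± 5.10 and 86.3 ± 16.4 CPM (SD, n = 3 each) and a log2 fold change of -0.60 (SE 0.23). Slc39a13, which releases zinc from intracellular vesicles, had 17.1, 38.1 and 24.0 CPM against 47.3, 49.0 and 57.2. It was the only metal carrier whose knockout-labelled libraries all lay above the wild type, with a log2 fold change of 0.95 (SE 0.36). Adjusted p-values were 0.349 for Slc30a5 and 0.353 for Slc39a13 (edgeR quasi-likelihood, Benjamini-Hochberg).

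The other zinc importers overlapped between groups. Slc39a6, a surface importer, had 70.5, 48.1 and 106 CPM against 54.4, 43.0 and 33.0. Slc39a9, found at the Golgi and the surface, had 41.2, 64.4 and 73.4 against 16.9, 45.2 and 33.9. Slc39a10, the usual partner of Slc39a6, had 36.8, 40.9 and 77.1 against 31.3, 39.8 and 13.6. In each of these the highest library was wild-type replicate 3, and fitted log2 fold changes lay between -0.90 and -0.78. The endoplasmic reticulum zinc channel Slc39a7 was more abundant, at 222, 262 and 321 against 253, 186 and 171 CPM. Of its exon bases, 83.5% lie under Gm20427 on the same strand, so reads of the genes cannot be told apart there. The zinc exporter Slc30a1 had 17.0, 4.45 and 4.73 CPM against 5.06, 3.73 and 2.61, and its log2 fold change of -1.20 was -0.27 without wild-type replicate 1.

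Of the iron, heme and copper carriers, only Slc31a1 had separate groups. Slc48a1, which moves heme out of endosomes and lysosomes, had 195, 343 and 198 CPM against 341, 358 and 332, so wild-type replicate 2 lay among the knockout-labelled libraries. Slc40a1, the iron exporter ferroportin, had 4.11, 4.99 and 1.83 CPM against 0, 15.2 and 50.4, from 0 to the highest value within the knockout-labelled group. Its fitted log2 fold change of 2.58 (SE 1.67) became -0.84 under limma-voom. Slc11a2, the ferrous iron importer DMT1, had 17.5, 49.1 and 49.4 CPM against 33.1, 24.0 and 56.1. Slc31a1, the copper importer CTR1, had 68.9, 68.9 and 69.3 CPM against 41.8, 63.9 and 66.7, so the groups were separate while knockout replicates 5 and 6 were close to the wild type. Among 21 tested iron-handling genes outside the family, 0 were called and 14 were fitted higher. Alas1, the first enzyme of heme synthesis in most cells, had 253, 160.5 and 216 CPM against 113, 86.6 and 82.7, with a log2 fold change of -1.16 (SE 0.25) and an adjusted p of 0.144 (edgeR quasi-likelihood, Benjamini-Hochberg). Of 11 metallothionein and metal-sensing genes tested, 0 were called and 8 were fitted higher, and Sod1, the copper and zinc superoxide dismutase, had 45.4, 51.9 and 27.6 CPM against 60.5, 74.0 and 95.5 without passing.

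Mitochondrial Slc25 carriers were the most abundant class. Slc25a5, the ADP and ATP exchanger ANT2, alone made up 8.23% to 14.4% of the CPM of all members. Its CPM was 1645, 1523 and 992 in the wild type and 1060, 1057 and 1652 in the knockout-labelled libraries. High and low libraries occurred in both groups, at a log2 fold change of -0.14 (SE 0.29). Reads of Slc25a5 may be shared with its processed pseudogenes and with Slc25a4, and how such reads were counted is not stated in the sources used. Slc25a4, the paralog ANT1, had 232, 193 and 163 CPM against 219, 239 and 286, and the phosphate carrier Slc25a3 had 317, 249.5 and 226 against 239, 244 and 404. All 3 genes were highest in knockout replicate 6, although the groups overlapped.

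The class of 40 had 18 members fitted higher and 22 lower, a median log2 fold change of -0.00, and separate groups for 4 on the higher and 2 on the lower side. Over all genes tested, 10.1% had separate groups on the higher and 11.3% on the lower side. Slc25a11, the oxoglutarate and malate exchanger, had 228, 219 and 199 CPM in the wild type and 263, 296 and 306 in the knockout-labelled libraries. Its groups were separate at means of 216 ± 15.1 and 288 ± 22.7 CPM (SD, n = 3 each) and a log2 fold change of 0.42 (SE 0.19). Slc25a16, linked to mitochondrial coenzyme A, had 9.87, 18.1 and 18.7 CPM against 21.6, 28.1 and 44.5, also separate, at 1.01 (SE 0.45) on the log2 scale. Slc25a12, the aspartate and glutamate carrier of the malate-aspartate shuttle, had 185, 108 and 180 CPM against 105, 109 and 108. Wild-type replicate 2 was level with the knockout-labelled libraries and the other wild-type libraries lay above them. Adjusted p-values were 0.448 for Slc25a11, 0.425 for Slc25a16 and 0.451 for Slc25a12 (edgeR quasi-likelihood, Benjamini-Hochberg).

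Among further mitochondrial carriers, the citrate carrier Slc25a1 had 159, 150.07 and 128 CPM against 195, 143 and 206. The carnitine and acylcarnitine carrier Slc25a20 had 58.9, 52.7 and 54.3 against 50.9, 106 and 74.0. Of the carriers that supply heme synthesis, the iron importer mitoferrin-1 (Slc25a37) had 17.7, 14.1 and 24.9 CPM against 10.8, 17.0 and 10.1. The glycine carrier Slc25a38 had 33.6, 31.5 and 28.2 against 33.3, 20.7 and 37.3. None of these 4 separated the groups. Of 21 tested genes of mitochondrial membrane transport outside the family, 0 were called and 9 were fitted higher, the median was -0.28 on the log2 scale, and Letm1, an inner membrane cation exchanger, had 134, 194 and 174 CPM against 98.1, 135 and 81.0.

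**Figure D3:**
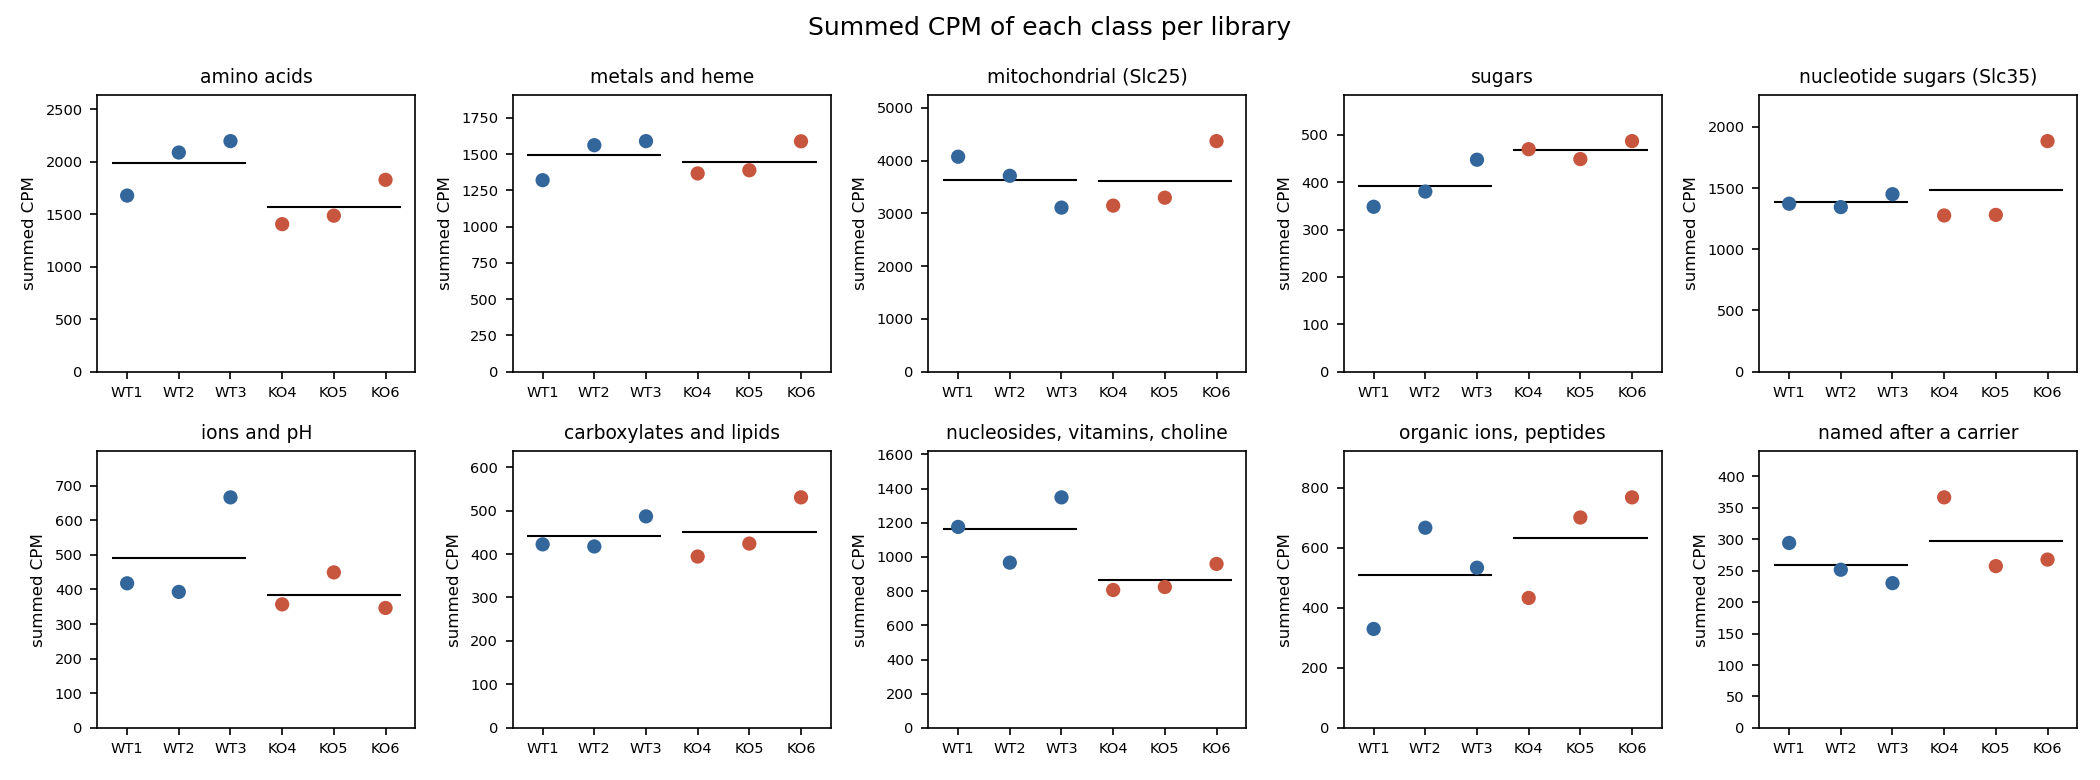
Summed CPM (y axis, from 0) of each substrate class in each library (x axis, wild type in blue, labelled knockout in red), with group means as black lines. Sums of nucleoside, vitamin and choline carriers were 967 to 1349 in the wild type and 807 to 959 in the knockout-labelled libraries, and the mitochondrial sums overlapped at 3109 to 4074 against 3147 to 4369.

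Nucleoside, vitamin and choline carriers had separate groups for 4 of 15 tested members, all on the lower side, where 11.3% of all genes had separate groups on that side, 8 being fitted higher and 7 lower around a log2 median of 0.06. Slc28a2 (mm10 chr2:122426477-122461130, plus strand), which takes up purine nucleosides with sodium, had 112, 50.9 and 148 CPM in the wild type and 29.5, 41.9 and 48.0 in the knockout-labelled libraries. Wild-type replicate 2 was only just above the knockout-labelled libraries. At a log2 fold change of -1.38 (SE 0.41), the adjusted p was 0.238 (edgeR quasi-likelihood, Benjamini-Hochberg), and it passed under DESeq2 at 0.0431. Slc43a3, a purine nucleobase carrier, had 149, 159 and 135 CPM against 83.2, 104 and 91.8. All wild-type libraries exceeded all others, at means of 148 ± 11.9 and 93.1 ± 10.6 CPM (SD, n = 3 each) and a log2 fold change of -0.67 (SE 0.21). Slc44a2, a choline transporter-like protein, had 297, 228 and 494 CPM against 196, 169.6 and 199, separate groups in which wild-type replicate 3 was highest. Slc29a1, the equilibrative nucleoside transporter ENT1, had 257, 172 and 198 CPM against 93.5, 77.9 and 222. Of its exon bases, 11.1% lie under Gm17080 on the other strand. Knockout replicate 6 lay among the wild type while replicates 4 and 5 lay below it, and the log2 fold change of -0.67 (SE 0.40) was -1.29 without that library. Slc44a1, another choline carrier, had 7.10, 17.0 and 8.89 CPM against 1.77, 12.3 and 9.30.

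Nucleotide sugar carriers of the Slc35 family supply the Golgi and endoplasmic reticulum, and 14 of 22 tested members were fitted higher. Groups were separate for 3 members on each side, where 10.1% of all genes were separate on the higher and 11.3% on the lower side. The orphan Slc35e4 had 15.0, 25.0 and 22.6 CPM in the wild type and 33.5, 45.6 and 87.0 in the knockout-labelled libraries, at a log2 fold change of 1.41 (SE 0.43). Slc35e3, also an orphan, had 25.1, 34.4 and 32.0 CPM against 10.2, 15.9 and 14.9, at -1.16 (SE 0.38). The groups of both genes were separate, in opposite directions. Slc35a3, which brings UDP-N-acetylglucosamine into the Golgi and was named after its values were seen, had 15.8, 11.6 and 24.8 CPM against 5.74, 8.12 and 4.06. The most abundant members per length, Slc35a4 and Slc35c2, had fitted log2 fold changes of -0.05 and 0.02 and overlapped. Adjusted p-values were 0.251 for Slc35e4, 0.278 for Slc35e3 and 0.322 for Slc35a3 (edgeR quasi-likelihood, Benjamini-Hochberg).

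Carriers of ions and protons were 24 tested members, 7 fitted higher and 17 lower, with a median log2 fold change of -0.33. Slc24a5 (mm10 chr2:125068127-125088677, plus strand), a potassium-dependent sodium and calcium exchanger known for pigment cells, had 3.91, 9.86 and 1.92 CPM in the wild type and 21.6, 39.6 and 17.2 in the knockout-labelled libraries. The groups were separate, at a log2 fold change of 2.32 (SE 0.69) and an adjusted p of 0.24 (edgeR quasi-likelihood, Benjamini-Hochberg). Without wild-type replicate 2 the log2 fold change was 3.16. Its exons lie for 47.2% under Myef2 on the other strand, and the libraries do not mark strand, so reads of the genes cannot be told apart there. Slc9a7, a sodium and proton exchanger of the trans-Golgi, had 5.62, 4.99 and 6.97 CPM against 1.41, 0.470 and 0.660, at a log2 fold change of -2.79 (SE 1.07). Slc8b1, the mitochondrial sodium and calcium exchanger, had 29.2, 30.2 and 26.9 CPM against 39.3, 41.8 and 35.3. Both had separate groups without passing. Slc20a1, a phosphate importer, had 35.4, 40.5 and 70.5 CPM against 15.4, 41.1 and 26.9, with its highest value in wild-type replicate 3. Of its exon bases, 12.9% lie under genes on the other strand.

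Carboxylate and lipid carriers had the highest class median, a log2 fold change of 0.24, with 11 of 16 tested members fitted higher. Slc16a9, a member of the monocarboxylate transporter family, had 2.43, 13.8 and 5.77 CPM against 26.3, 30.5 and 10.8, with replicate 6 lowest in its group and within the wild-type range, and 25.1% of its exon bases lie under genes on the other strand. The lactate and pyruvate carrier Slc16a1 had 92.5, 104 and 145 CPM against 58.5, 71.1 and 139.5, and the fatty acid transport protein Slc27a1 had 89.1, 75.1 and 94.4 against 83.5, 93.3 and 91.0, both overlapping.

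Of 14 tested carriers of organic ions and peptides, 10 were fitted higher. Slc22a4, the carrier of ergothioneine and some organic cations, had 9.05, 3.03 and 10.8 CPM in the wild type and 0, 1.12 and 0.0314 in the knockout-labelled libraries. The groups were separate at a log2 fold change of -4.29 (SE 1.85), with an adjusted p of 0.414 (edgeR quasi-likelihood, Benjamini-Hochberg). Without knockout replicate 5, the only one of its group above 1 CPM, the log2 fold change was -8.68. Its neighbour Slc22a21, 3099 bases away on the same strand of chromosome 11, had 172, 233 and 117 counts against 401, 310 and 2, so replicate 6 was near 0 for both genes while replicate 4 was at 0 for Slc22a4 and highest for Slc22a21. Slc18a2, the vesicular monoamine transporter also used by mast cells and platelets, had 38.5, 128 and 151 CPM against 98.0, 211 and 343, an overlap with replicates 5 and 6 above the wild type. Summed CPM of 7 mast cell and basophil markers was 99.6 to 378 in the wild type and 54.1 to 62.8 in the knockout-labelled libraries, and Tpsb2 was at 0 in all 6 libraries. The vesicular monoamine transporter Slc18a1 had 289, 8 and 195 counts against 0, 9 and 3, and did not pass the count filter.

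**Figure D4:**
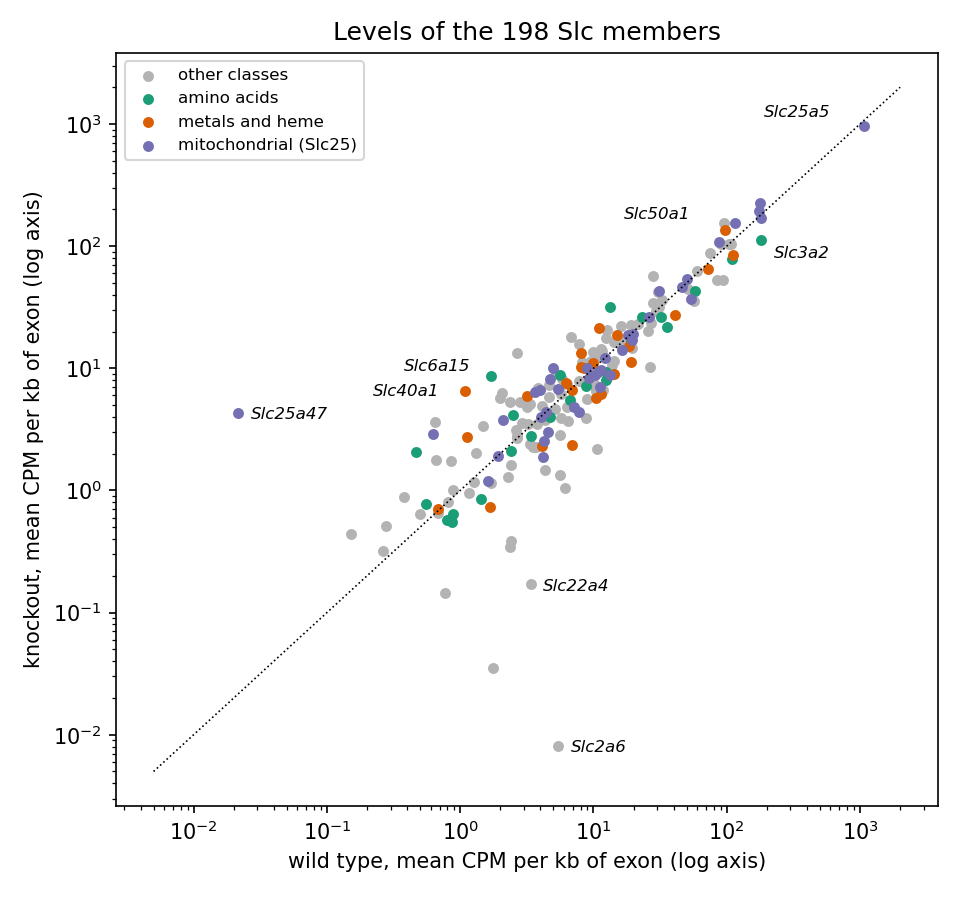
Mean CPM per kb of exon of the 198 members in the wild type (x axis) and the knockout-labelled libraries (y axis), both on log axes, colored by class, with the dotted line at equality. Levels averaged over all libraries run from 0.292 to 1020.4 CPM per kb, with Slc25a5 at the top and Slc2a6 and Slc25a47 far from the line.

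Levels per length spanned a wide range. The mean over all libraries ran from 0.292 to 1020.4 CPM per kb of exon with a median of 7.67, and 15 members were under 1 while 10 reached 100. Slc25a5 stood first at 1020.4 CPM per kb, followed at a distance by Slc25a4 at 201 and Slc25a3 at 185. Slc3a2 led the amino acid class at 147, ahead of Slc1a5 at 94.0, and Slc48a1 led the metal class at 117, ahead of Slc39a7 at 98.5 CPM per kb. Slc50a1 led the sugar class at 126 CPM per kb. Together the 10 members with the highest CPM took 32.1% to 37.9% of the CPM of all members in a library.

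Members varied between mice of a group. The median coefficient of variation of CPM was 31.4% in the wild type and 38.5% in the knockout-labelled libraries, against 27.0% and 34.1% over the 11778 genes with at least the same summed counts. It was larger in the knockout-labelled group for 129 members, or 65.2%, against 61.1% of those genes. Of the members, 26 (13.1%) had at most 3 counts in some library, against 10.3% of those genes, and knockout replicate 6 held 14 such members. The next examples were chosen after their values were seen. Slc12a4, a potassium and chloride cotransporter, had 478, 869 and 647 counts in the wild type and 0, 365 and 79 in the knockout-labelled libraries. Slc4a2, an anion exchanger, had 543, 497 and 1057 against 786, 1094 and 0, so it was missing from replicate 6 only, and 16.6% of its exon bases lie under Fastk on the other strand. Slc6a9, a glycine transporter, had 45, 15 and 77 against 480, 298 and 0, and 47.5% of its exon bases lie under genes on the other strand, whose reads cannot be told apart from its own. A value of 0 in one library thus stood beside 298 counts or more in another of the same group.

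Some members were set beside blood lineage markers, chosen after their values were seen and with no test. Slc14a1, the urea transporter of red cells, had 42.9, 246 and 47.5 CPM in the wild type and 84.7, 229 and 99.8 in the knockout-labelled libraries. It was high in wild-type replicate 2 and knockout replicate 5. The summed CPM of 8 megakaryocyte markers, 173, 1272 and 333 against 265, 1482 and 429, was high in the same libraries. On that list Gp6 was at 0 in every library except wild-type replicate 3. Ppbp was highest in wild-type replicate 1, with 17.3, 14.2 and 11.4 CPM against 9.41, 10.7 and 14.1. Slc38a5, a glutamine and neutral amino acid carrier named after its values were seen, had 1.13, 23.2 and 7.31 CPM against 6.18, 0 and 43.6. It was highest in knockout replicate 6 and wild-type replicate 2, as were 9 erythroid markers at 75.5, 276 and 88.6 against 95.4, 151 and 361 summed CPM, but it was at 0 in knockout replicate 5, where these markers summed to 151 CPM. Slc4a1, the red cell anion exchanger and itself on the erythroid list, had 0, 80 and 120 counts against 0, 1 and 277. It was thus higher in wild-type replicate 3 than in replicate 2, as were Alas2 and Ermap on that list. Gata1 and Epor, also on it, were highest in replicate 5 among the knockout-labelled libraries. The part of these lineages in the members' values was not tested.

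**Figure D5:**
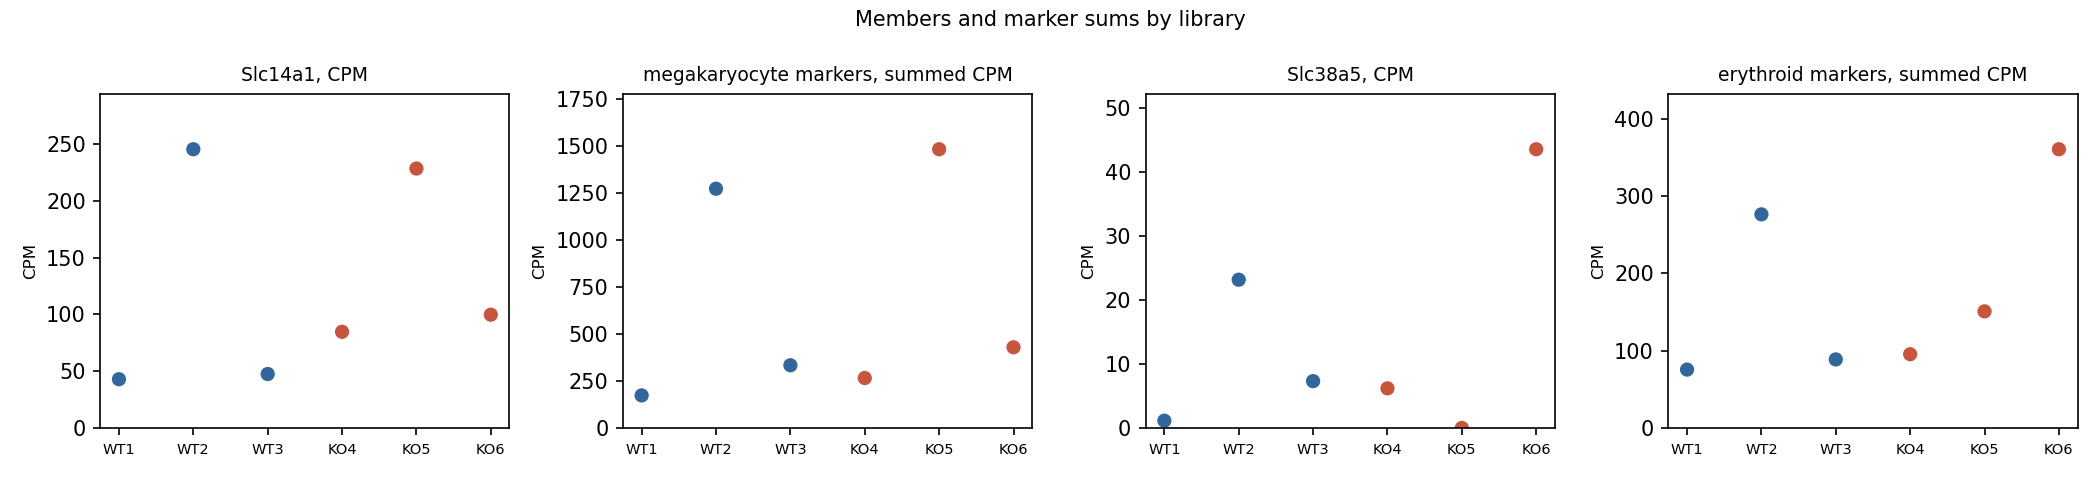
CPM of Slc14a1 and Slc38a5 and summed CPM of the megakaryocyte and erythroid marker lists (y axes, from 0) in each library (x axis, wild type in blue, labelled knockout in red). Slc14a1 and the megakaryocyte markers are highest in WT2 and KO5, at 246 and 229 and at 1272 and 1482 CPM, and Slc38a5 and the erythroid markers are highest in WT2 and KO6.

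Neighbouring members were compared because carriers often lie in clusters. There were 8 pairs within 50 kb of each other. Besides the pairs given above, Slc16a11 and Slc16a13 lie 378 bases apart on chromosome 11 on opposite strands and were named for this position. Slc16a11, a monocarboxylate transporter relative, had 882, 472 and 236 counts in the wild type and 329, 111 and 2 in the knockout-labelled libraries. Slc16a13, another relative, had 827, 560 and 1136 against 1575, 980 and 1382. Fitted log2 fold changes of this pair were -2.27 (SE 1.27) and 0.36 (SE 0.36), so the close neighbours did not share a direction. Slc38a1 and Slc38a2 were both fitted lower, at -0.20 and -0.30 on the log2 scale.

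Promoter letters were described for the 149 members with a RefSeq window, 199 windows in all. The CCAAT box was in 51.2% of the windows of mitochondrial carriers, in 38.1% for metals and in 29.6% for amino acids. It was in 33.7% of all member windows and in 37.4% of all promoter windows. The E-box, the letters CACGTG, was in 17.1% of mitochondrial, 23.8% of metal and 14.8% of amino acid carrier windows. Its share was 14.6% of all member windows and 7.15% of all windows. The core of the metal response element, the site of the zinc-sensing factor MTF1, was searched as TGCACNC or TGCGCNC on both strands. It was in 52.4% of metal carrier windows, 7.41% of amino acid carrier windows, 35.7% of all member windows and 25.7% of all windows. TGATGNAA, the core of the element bound by ATF4 under amino acid shortage, was in 3 of 27 amino acid carrier windows (11.1%). These windows belong to Slc1a4 and Slc7a7, those of Slc7a7 overlapping each other. The same letters were in 0 of the 21 metal and 41 mitochondrial windows, and in 3.97% of all windows. A gene can have several overlapping windows, and these shares are descriptions with no test.

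The fold changes of the authors' deposited table differ from those of the deposited counts. Slc2a6 has a log2 fold change of -2.91 in the authors' deposited table, and Slc25a47 one of 1.82. Slc37a2, whose largest count was in knockout replicate 6, has -7.86 in the authors' deposited table. The sign in the authors' deposited table was opposite to that of the fit here for 76 of 196 members (38.8%) and for 34.8% of all genes tested. Adjusted p-values of all members named by rule are 1 in the authors' deposited table. The sources used here do not say which libraries enter that comparison.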

How the data were processed

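Per the labels, RNA of 6 libraries (3 per genotype, 1 mouse each) was made into cDNA with the SMART-Seq v4 kit and into libraries with Nextera XT, which does not mark strand. Reads were processed with STAR 2.5, Trimmomatic 0.40, FastQC, MultiQC 0.11.5 and edgeR 3.28.1 on mm10, per the submitters' processing notes, and the table's name adds featureCounts. The authors deposited raw counts per gene, the summed exon length of each gene, log2 FPKM values, which were not used, and a comparison of their own with log2 fold changes and p-values.

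From the counts, 12603 genes were kept by filterByExpr (minimum of 10 counts), scaled by TMM (factors 0.949 to 1.04) and tested for genotype with edgeR's quasi-likelihood test, robust and two-sided, with Benjamini-Hochberg adjustment over all genes and a threshold of 0.05 (R 4.3.3, edgeR 4.0.16). The fit used all 6 libraries with no covariate. A standard error is the log2 fold change divided by the square root of F. Alternatives were DESeq2 1.42.0, edgeR's likelihood ratio test, limma-voom 3.58.1 with and without sample quality weights, other scalings and filters, and leaving out each library. On simulated counts of this comparison over 12215 genes, 63.2% of 106 genes changed by 2 on the log2 scale and 91.5% of 94 changed by 4 were recovered, with 11 false calls. The changed genes were drawn only from those above a minimum mean CPM, and genes missing from single libraries were not modelled. These shares therefore do not apply to members with few counts or with libraries at 0.

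Each member was assigned to a substrate class by its family name, except for some that were placed one by one. Among these are Slc16a10 (amino acids), Slc43a3 (nucleosides) and Slc6a13 (organic ions), and class counts depend on such choices. Members and lists were chosen with earlier results of these data known. Genes were named by rule: the members with the smallest p in each class, the most abundant per length, a list of well-known carriers, those nearest the count limit and those with at most 3 counts in a group. Results of some members are not reported here, though counts include them. Others are said to be named afterwards or for their position. Examples from the pathway lists outside the family were chosen after their values were seen. Positions were compared with GENCODE M21, where all 198 members were found, 15 of them with over 10% of exon bases under a gene on the other strand. The other marker lists summed, wild type against knockout-labelled, to 112 to 283 and 72.7 to 150.4 CPM for B cells, to 327 to 588 and 224 to 343 for T and NK cells, and to 598 to 1024 and 315 to 758 for neutrophils, with Ebf1 (B cells) and Tcf7 (T cells) at 0 in all knockout-labelled libraries. Intervals cover counting error only, as reads carry no molecular identifiers. Nothing in the labels excludes that differences between mice include technical spread.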

Additional observations from a re-analysis of the deposited data

How the results depend on the processing

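No paired analysis was possible because the groups share no replicate numbers. Members called were 0 higher and 0 lower with limma-voom, with sample quality weights and with other scalings and filters. DESeq2 gave 6 and 2, with 14 higher at an unadjusted p under 0.05 where 6.93% of all genes were, and the likelihood ratio test gave 3 and 1. At that unadjusted p, limma-voom gave 16 lower (all genes 8.43%), and quality weights gave 14 higher and 18 lower (all genes 6.51% and 8.28%), or 16.3% of members against 14.8% of all genes. Leaving out 1 library gave 0 to 0 called higher and 0 to 1 called lower. It gave 7 to 13 higher (13 without wild-type replicate 2) and 5 to 17 lower at an unadjusted p under 0.05, the former without wild-type replicate 3, the latter without knockout replicate 6, and 16 without replicate 5. Shares of all genes over these fits were 3.51% to 4.99% higher and 4.78% to 8% lower. Members' total share exceeded that of all genes without knockout replicate 6 (14.7% against 12.8%) and without wild-type replicate 2 (11.2% against 10.4%), and lay below it in the other 4. Groups of fewer libraries overlap less, and 22 to 27 members higher and 23 to 36 lower were then separate. The share of all genes with separate groups was not determined for these fits. Whether members exceeded all genes by this measure therefore cannot be judged.

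Fitted log2 fold changes reversed in sign under some alternatives for the members named here, none of which passed. With limma-voom they were -0.0919 for Slc10a3 and -0.84 for Slc40a1. With quality weights they were -0.29 and -1.94 for these, -0.0479 for Slc25a3, -0.0509 for Slc35c2 and -0.0136 for Slc39a1, and Slc25a38 was 0.00435 under upper-quartile scaling. Leaving out 1 library gave -0.39 to 0.18 for Slc10a3, -0.44 to 0.18 for Slc11a2, -0.30 to 1.60 for Slc14a1, -0.13 to 0.31 for Slc25a3, -0.20 to 0.17 for Slc25a38, -0.69 to 0.54 for Slc26a11, -0.0464 to 0.10 for Slc27a1, -0.10 to 0.52 for Slc2a3, -0.21 to 0.0599 for Slc35a4, -0.0791 to 0.12 for Slc35c2, -0.95 to 0.11 for Slc38a6, -0.15 to 0.34 for Slc39a1 and -0.68 to 0.13 for Slc7a1. The cause of these reversals was not tested. With 1 library left out, the range was 6.91 to 10.82 for Slc25a47, -11.51 to -8.53 for Slc2a6, 1.93 to 2.99 for Slc6a15, 1.202 to 2.46 for Slc16a9 and 1.06 to 3.17 for Slc40a1, all with an unchanged sign. For members highest in knockout replicate 6, it was 0.88 to 1.53 for Slc7a4, 0.92 to 1.67 for Slc35e4 and 0.54 to 1.39 for Slc18a2. At 3 mice per group and with members at 0 in single libraries, smaller differences may not be detectable at this depth.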
